A study of Mus musculus with 12 samples.

Results

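PKO-6, a clone of mouse embryonic fibroblasts (MEFs) from which exon 2 of *Pnpt1* was removed, was compared with the rho0 line, whose mitochondrial DNA (mtDNA) was depleted by a drug. The comparison took the 3 PKO-6 and the 3 rho0 libraries, 6 of the 12 RNA-seq libraries in the series, and all genes in the table of expected counts, of which 14026 of 24453 were tested. Both lines descended from TM6 MEFs of strain C57BL6/J, which carry loxP-flanked (neo-flox) alleles at both copies of *Pnpt1* and were the common parent. PKO-6 arose from a single TM6 cell that had taken up an adenovirus carrying Cre recombinase, and rho0 arose from a single cell after TM6 MEFs were grown for 3 weeks with ditercalinium at 750 ng/mL. The rho0 line therefore kept its floxed alleles and never received Cre, and PKO-6 never received ditercalinium. All lines were cultured with 10% serum and 50 µg/mL uridine, and the other 6 libraries came from TM6 itself and from PKO-1, another knockout clone, which are used here only to place levels. PKO-6 and rho0 are 1 clone each, so the manner of losing mtDNA, the absence of PNPase and the history of the clone cannot be told apart, and replicates are cultures grown from 1 clone.

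PNPase, the product of *Pnpt1*, is an exoribonuclease of mitochondria that degrades RNA from its 3′ end together with the helicase SUPV3L1, and it has been linked to the import of small nuclear-encoded RNAs. Mitochondrial DNA encodes a small set of respiratory chain proteins and the ribosomal and transfer RNAs needed to make them, so a cell without it keeps mitochondria but cannot respire. Such cells live on glycolysis and need uridine, because a step of pyrimidine synthesis depends on the respiratory chain. Mitochondrial dysfunction of this kind is known to switch on the integrated stress response, in which the transcription factor ATF4 raises genes of amino acid and one-carbon metabolism. Comparing PKO-6 with rho0 asks how far MEFs that lost mtDNA in these different ways differ in their nuclear transcripts.

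Totals of expected counts were 48899971 to 62222900 in rho0 and 53260380 to 67991336 in PKO-6. The table held 0 entries encoded by mtDNA, so its loss in these libraries was not analysed here. Of 16 fibroblast markers none was at 0 in both lines, and their summed level in TPM, a length-scaled share of transcripts, was 3937 to 4038 in rho0 and 3164 to 3488 in PKO-6. Epithelial markers summed to 10.2 to 11.7 TPM in rho0 and 1.85 to 2.17 TPM in PKO-6, with *Krt5* at 0. The sum hides opposite directions, since of 3 tested epithelial markers 2 were higher in PKO-6 and 1 lower (log2 fold changes -5.71 to 3.41). Blood markers summed to 2.57 to 4.50 TPM in rho0 and 4.63 to 6.12 TPM in PKO-6, with *Adgre1* and *Cd3e* among those at 0. The part of these markers in the results was not tested, and in bulk RNA fewer cells of a type and less RNA per cell cannot be told apart. Replicates were not equally close: the chi-square statistic per degree of freedom over genes was 4.53 between rho0 replicates 2 and 3, but 63.1 and 83.1 between either of them and rho0 replicate 1, and 77.7 and 132 between PKO-6 replicate 3 and its partners, against 24.0 between PKO-6 replicates 1 and 2. RNA was purified with TRIzol or an RNeasy kit and the labels do not say which library had which. Counts of called list members moved where libraries were left out, and the larger shifts are given beside them, those without rho0 replicate 1 and PKO-6 replicate 3 together as counts without both libraries. Shifts of a count by 1 gene are not all given.

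*Pnpt1* (chromosome 11, 29130751 to 29161828 of GRCm38, plus strand, 28 exons) was lower in every PKO-6 library. Its normalized counts, which are counts divided by the scaled library size, were 5051, 5251 and 5509.5 in rho0 and 1897, 1720.4 and 2214 in PKO-6. The PKO-6 libraries lay far below the rho0 libraries and also below the TM6 mean of 3131 ± 262 (SD, n = 3), while rho0 lay above it. The log2 fold change was -1.44 ± 0.08 (SE, edgeR adjusted p = 1.15e-08). Counts cover the whole gene, including the 3′ exons that Cre leaves in place. Among 21 tested genes of mitochondrial RNA decay and PNPase partners, *Pnpt1* alone was lower, and 2 were higher, *Rpph1* and *Rnaset2a*. That was 14.3% called, below the 21.5% of all genes. *Rpph1*, the RNA subunit of nuclear RNase P, had 266113, 220872 and 233225 normalized counts in rho0 and 434886, 458912 and 378215 in PKO-6, with a log2 fold change of 0.82 ± 0.10 (edgeR adjusted p = 1.28e-05). All PKO-6 libraries exceeded all rho0 libraries for *Rpph1*, whose level in PKO-1 was 278817 ± 29715 (SD, n = 3). *Rnaset2a*, a lysosomal RNase with the near copy *Rnaset2b* in the same place, differed by 0.57 ± 0.09 and was no longer called without rho0 replicate 2, at 0.47.

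Over all genes, 3014 of 14026 were called (21.5%), meaning a log2 fold change beyond 0.5 in either direction at an edgeR adjusted p under 0.01. Of these, 1870 were higher in PKO-6 (13.3% of tested genes) and 1144 were lower (8.16%). The libraries of the lines did not overlap for 7950 genes (56.7%) and for 2986 of the 3014 called genes. Most differences were small, with a median absolute log2 fold change of 0.287, or 1.22-fold, and 697 genes (4.97%) were called with a log2 fold change beyond 2 in either direction. Other comparisons give scale, each sharing the PKO-6 or the rho0 libraries with this one. There were 4590 genes called between PKO-1 and rho0 (32.7%) and 4087 between PKO-6 and PKO-1 (29.1%). Against TM6 the counts were 5799 for PKO-6 (41.3%) and 5902 for rho0 (42.1%). PKO-6 thus had fewer called genes against rho0 than against the other knockout clone, and the counts themselves were not tested against each other.

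**Figure D1:**
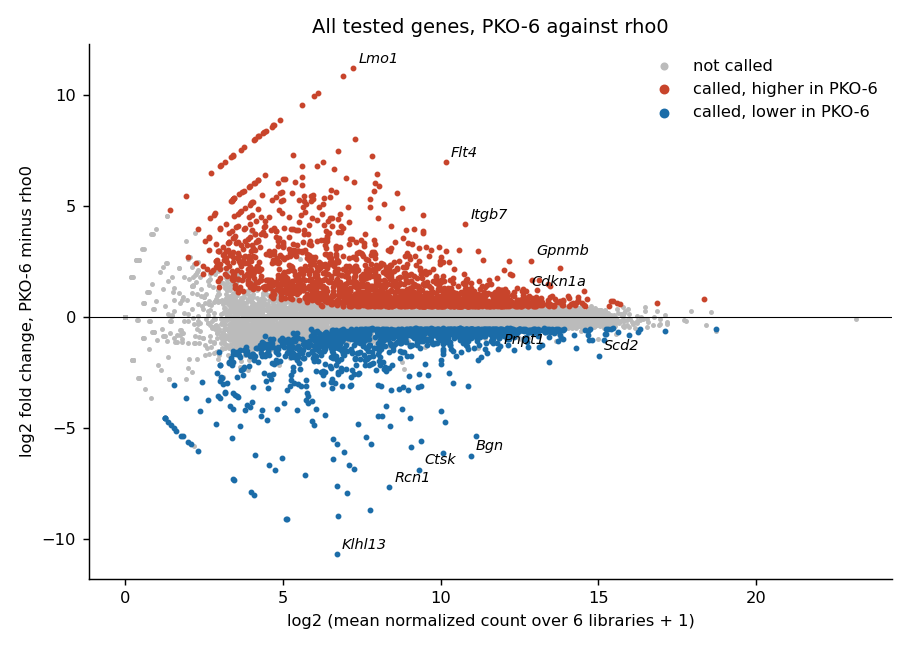
Log2 fold change of PKO-6 against rho0 (vertical) by log2 of the mean normalized count over the 6 libraries plus 1 (horizontal) for the 14026 tested genes, 1 point a gene. The 1870 genes called higher (red) reach from just above the threshold to *Lmo1* at the top, and the 1144 called lower (blue) reach down to *Klhl13*, while grey genes were not called.

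Some genes were read in only 1 of the lines. Silence is here at most 3 counts in every library of a line, and expression a mean of at least 100 normalized counts in the other. By this rule 6 genes were silent in PKO-6 and expressed in rho0, or 10 without PKO-6 replicate 3. In the other direction 10 were silent in rho0 and expressed in PKO-6, or 17 without both libraries. Promoters of 4 of them are shown, because these genes were read in 1 of the lines and not in the other, and their start sites can be compared by CpG content. Each is 300 bases from RefSeq (GRCm38.p6), 250 before and 50 after the start of transcription, written 5′ to 3′ on the strand of the gene with every CG in capitals. *Cyba* lies at chr8:122432891-122433190 on the minus strand and *Runx3* at chr4:135120395-135120694 on the plus strand, and both were silent in PKO-6. *Lmo1* lies at chr7:109175158-109175457 on the minus strand and *Mmp3* at chr9:7445572-7445871 on the plus strand, and both were silent in rho0.
Cyba: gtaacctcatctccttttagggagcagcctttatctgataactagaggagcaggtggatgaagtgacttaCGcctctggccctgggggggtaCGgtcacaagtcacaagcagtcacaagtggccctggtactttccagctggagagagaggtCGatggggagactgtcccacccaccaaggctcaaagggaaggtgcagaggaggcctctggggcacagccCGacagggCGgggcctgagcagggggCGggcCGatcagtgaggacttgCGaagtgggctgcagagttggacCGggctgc
Runx3: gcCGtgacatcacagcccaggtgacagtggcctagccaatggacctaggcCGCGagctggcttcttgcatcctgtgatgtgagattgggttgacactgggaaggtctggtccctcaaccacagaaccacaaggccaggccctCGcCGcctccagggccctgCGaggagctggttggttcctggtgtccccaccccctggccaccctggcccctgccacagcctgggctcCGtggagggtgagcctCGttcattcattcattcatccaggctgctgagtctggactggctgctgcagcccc
Lmo1: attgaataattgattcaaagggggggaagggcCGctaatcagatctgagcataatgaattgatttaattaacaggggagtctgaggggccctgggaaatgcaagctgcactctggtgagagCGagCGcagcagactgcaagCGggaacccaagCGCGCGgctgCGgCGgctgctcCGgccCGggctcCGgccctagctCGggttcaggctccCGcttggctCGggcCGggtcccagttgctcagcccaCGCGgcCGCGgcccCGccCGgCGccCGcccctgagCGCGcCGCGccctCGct
Mmp3: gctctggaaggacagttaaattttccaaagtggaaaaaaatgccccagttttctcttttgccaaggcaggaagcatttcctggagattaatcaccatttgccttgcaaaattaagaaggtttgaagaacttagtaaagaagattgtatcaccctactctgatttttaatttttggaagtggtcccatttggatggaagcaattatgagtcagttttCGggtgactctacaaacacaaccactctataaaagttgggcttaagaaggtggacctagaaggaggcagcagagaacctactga

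The *Cyba* promoter held 9 CG, that of *Runx3* 8, that of *Lmo1* 29 and that of *Mmp3* 1. Shares of all 27025 promoters with at least that many were 46.2%, 49.0%, 12.7% and 94.2%, and the median promoter held 7. Promoters of the genes silent in PKO-6 had a median of 9 (4 to 15, 5 promoters found for 6 genes), and those of the genes silent in rho0 a median of 7 (1 to 41, 10 promoters). The switched genes were thus spread over CpG-poor and CpG-rich starts.

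Genes silent in PKO-6 were mostly read in the parent. *Zdhhc15*, which encodes a palmitoyltransferase, had 439, 432 and 429.9 normalized counts in rho0 and 1.64, 1.04 and 0 in PKO-6, at least 155-fold lower against a floor of 3 counts per library. *Cyba*, the p22phox subunit of NADPH oxidases, had 286, 263 and 230.0 in rho0 and 1.64, 1.04 and 0 in PKO-6, at least 92.8-fold lower. *Runx3*, a Runt-family transcription factor, had 195, 216 and 205 in rho0 and 0.819, 1.04 and 0.970 in PKO-6, at least 73.4-fold lower. The gap between the lines follows from the rule by which these genes were chosen. TM6 stood at 300.4 ± 2.33 for *Zdhhc15*, 750.5 ± 67.1 for *Cyba* and 1419.5 ± 68.0 for *Runx3* (SD, n = 3 each). PKO-1 had 2.88 ± 1.09, 483 ± 9.33 and 55.4 ± 1.42, so PKO-1 was also low in *Zdhhc15* but not in *Cyba*. The others were *Pcdh7*, a protocadherin (at least 76.9-fold, and at 0 in PKO-1 as well), *Klhl13*, an adaptor of cullin ligases that overlaps other gene models (at least 73.7-fold), and *Piezo2*, a mechanically gated channel (at least 36.5-fold). In all, 5 of the 6 had a mean of at least 100 in TM6, against 1 of the 6 in PKO-1.

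Genes silent in rho0 were mostly low in the parent as well. *Lmo1*, a LIM-domain transcription cofactor, had 0 counts in all rho0 libraries and 299.7, 342 and 251 normalized counts in PKO-6, at least 93.6-fold higher. *Mmp3*, the metalloproteinase stromelysin-1, had 0 in all rho0 libraries and 214, 294 and 206 in PKO-6, at least 74.8-fold higher. *Ms4a4d*, a membrane protein gene, had 2.91, 0 and 0 in rho0 and 281, 308 and 341 in PKO-6, at least 97.5-fold higher. Their distance from rho0 follows from the rule, and the PKO-6 libraries were close together for each of them. TM6 had 18.6 ± 2.32 normalized counts of *Lmo1*, 15.9 ± 1.69 of *Mmp3* and 19.1 ± 2.40 of *Ms4a4d* (SD, n = 3 each), and PKO-1 had 2.54 ± 0.505, 23.3 ± 10.3 and 22.4 ± 4.30. *Etl4* (at least 66.6-fold), *Clstn3*, a calsyntenin of synapses (at least 60.7-fold), and *Mgst1*, a microsomal glutathione transferase (at least 47.8-fold), followed, and the remaining 4 were at least 37.5-fold to 43.2-fold higher. Of the 10 genes, 2 had a mean of at least 100 in TM6 and 0 in PKO-1.

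**Figure D2:**
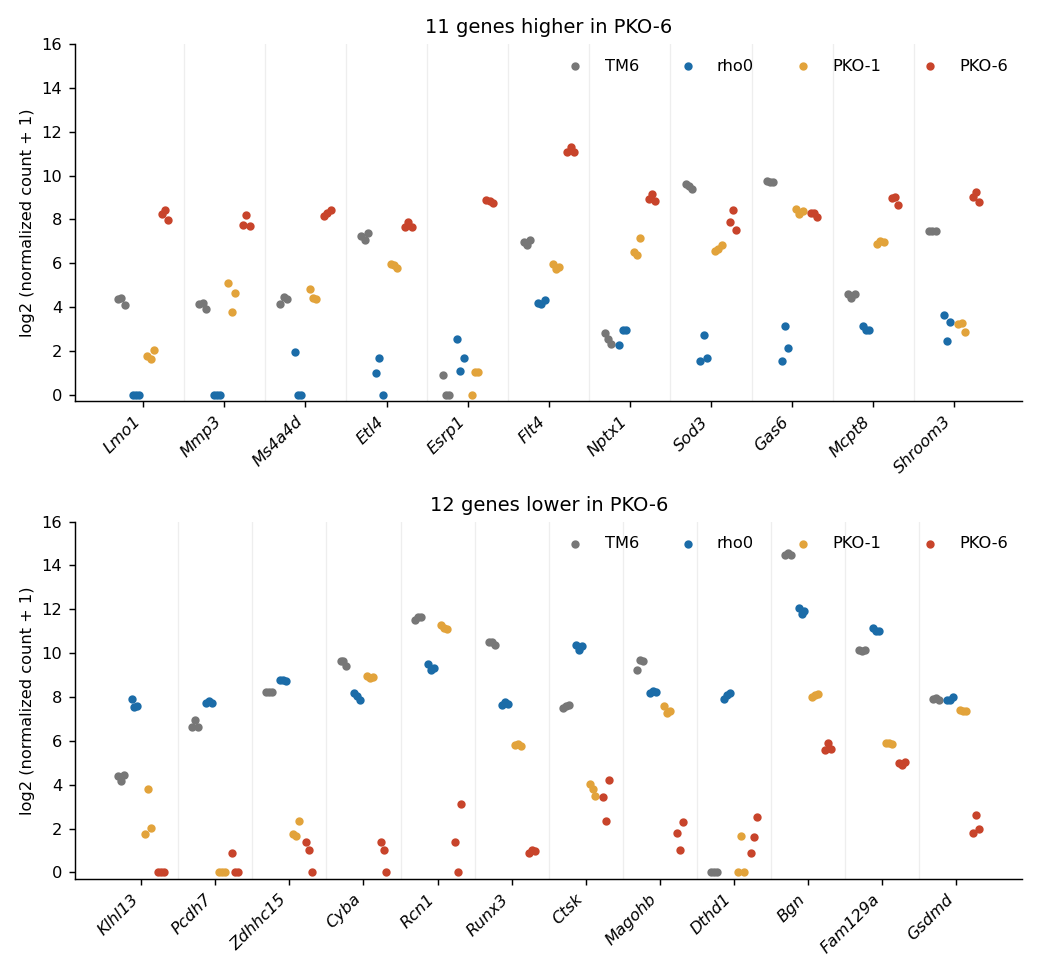
Log2 of the normalized count plus 1 in each of the 12 libraries for 11 genes with the largest differences upwards (top) and the 12 downwards (bottom) in PKO-6 against rho0, 1 point a library, coloured by line. Genes were chosen for no overlap between the PKO-6 and rho0 libraries, so these stand apart by the rule. PKO-1 (orange) falls with PKO-6 for some, as for *Ctsk* and *Zdhhc15*, and with rho0 for others, as for *Esrp1* and *Gsdmd*.

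Other genes higher in PKO-6 included secreted ligands and a receptor. *Flt4* (chromosome 11, 49609679 to 49652739, plus strand), the receptor of the lymphatic growth factor VEGF-C, had a mean of 17.7 normalized counts over the 3 rho0 libraries, the lowest at 16.6, and 2166, 2497 and 2145 in PKO-6. Its log2 fold change of 6.99 ± 0.12 (edgeR adjusted p = 7.80e-14) was a 128-fold difference, with TM6 at 124 and PKO-1 at 56.2 on average. PKO-6 lay far above the parent and rho0 below it. *Gas6*, the secreted ligand of the TAM receptor kinases, had 1.94, 7.76 and 3.35 in rho0 and 309, 314 and 277 in PKO-6 (log2 fold change 6.10 ± 0.21, 6.78 without rho0 replicate 2). PKO-1 had 329 and TM6 837 of *Gas6*, so rho0 was the low line. *Sod3*, the extracellular superoxide dismutase, was also lowest in rho0, with means of 3.24 in rho0, 253 in PKO-6, 102 in PKO-1 and 732 in TM6 (log2 fold change 6.26 ± 0.34).

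*Esrp1* and *Nptx1* were highest in PKO-6 of the 4 lines. *Esrp1*, an epithelial regulator of splicing, had 4.84, 1.11 and 2.23 normalized counts in rho0 and 466, 454 and 429 in PKO-6, with means of 0.288 in TM6 and 0.700 in PKO-1. *Nptx1*, a neuronal pentraxin, had means of 5.74 in rho0, 501 in PKO-6, 4.94 in TM6 and 105 in PKO-1. *Shroom3*, an actin-binding protein of apical constriction, and *Mcpt8*, a mast cell protease, were higher too, at log2 fold changes of 5.93 ± 0.21 and 6.05 ± 0.17.

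Genes lower in PKO-6 included a matrix proteoglycan and a lysosomal protease. *Bgn* (chromosome X, 73483601 to 73495936, plus strand), the proteoglycan biglycan, had 4299.7, 3522 and 3889 normalized counts in rho0 and 47.5, 59.1 and 48.5 in PKO-6 (log2 fold change -6.24 ± 0.10, edgeR adjusted p = 3.87e-14). *Ctsk*, the collagen-degrading cathepsin K, had 1342, 1115 and 1279 in rho0 and 9.83, 4.15 and 17.5 in PKO-6 (log2 fold change -6.87 ± 0.22). *Fam129a*, a stress-induced regulator also called Niban, had 2281, 2048 and 2076 in rho0 and 31.1, 29.0 and 32.0 in PKO-6 (log2 fold change -6.11 ± 0.09, edgeR adjusted p = 1.37e-14). PKO-1 was low for these genes too, with means of 270.4 for *Bgn*, 12.9 for *Ctsk* and 57.9 for *Fam129a*, while TM6 had 23491, 190.2 and 1122. For *Ctsk* and *Fam129a* rho0 was thus the highest line.

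For *Rcn1*, *Magohb* and *Gsdmd*, PKO-6 was the low line. *Rcn1*, a calcium-binding protein of the endoplasmic reticulum, had 716, 601 and 648 normalized counts in rho0 and 1.64, 0 and 7.76 in PKO-6, against means of 3092 in TM6 and 2323 in PKO-1. Its log2 fold change of -7.66 ± 0.25 was -9.30 without PKO-6 replicate 3, the library with most of its counts. *Magohb*, a core protein of the exon junction complex, had means of 298 in rho0 and 2.46 in PKO-6, with 741 in TM6 and 171 in PKO-1. *Gsdmd*, the pore-forming gasdermin D of pyroptosis, had 241 in rho0 and 3.52 in PKO-6, with 238 in TM6 and 164 in PKO-1. *Dthd1*, a death-domain gene, was in turn read by rho0 alone, at 268 against 2.58 in PKO-6, 0 in TM6 and 0.710 in PKO-1.

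None of the 23 tested genes of mtDNA replication and transcription and none of the 36 nuclear subunits of complex I was called, with median log2 fold changes of -0.02 (range -0.48 to 0.44) and 0.02 (-0.37 to 0.44), while 21.5% of all genes were called and their median was -0.01. Without both libraries 0 of the replication genes were higher and 2 lower, and 2 complex I subunits were higher and 0 lower. Of 42 nuclear subunits of complexes II to V, 6 were higher and 0 lower (median 0.21), and this 14.3% was near the 13.3% higher of all genes. Without both libraries it was 12 and 0, and with the median of each chromosome removed 4 and 0. *Uqcrh*, a hinge protein of complex III, had 1852, 1499 and 1539.8 normalized counts in rho0 and 3002, 3422 and 2963 in PKO-6 (log2 fold change 0.94 ± 0.08, edgeR adjusted p = 6.64e-07), and *Atp5k*, subunit e of ATP synthase, differed by 0.81 ± 0.11. Both were higher still in PKO-1 (means 4596 and 2918) and above rho0 in TM6 too (3928 and 2017), so rho0 was lowest of the 4 lines. *Cox6a2*, a muscle isoform of cytochrome c oxidase, was also called, at 0.69 ± 0.16, but not without rho0 replicate 2 or 3 or PKO-6 replicate 1. Mitochondrial ribosomal proteins counted 3 higher and 2 lower of 77 (6.49% called, median -0.00). It was 7 and 0 without rho0 replicate 1 alone, 5 and 1 without PKO-6 replicate 3 alone and 9 and 0 without both libraries. Among the 5, *Mrps21* was at 0.88 ± 0.10 and *Mrpl22* at 0.66 ± 0.08.

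Of 42 Slc25 carriers 3 were higher and 3 lower (14.3% called, against 21.5% of all genes). It was 5 and 1 without PKO-6 replicate 3, 5 and 2 without both libraries, and 3 and 0 with the median of each chromosome removed. *Slc25a23*, a calcium-regulated ATP-magnesium carrier, had 188, 173 and 176 normalized counts in rho0 and 1473, 1499 and 1459 in PKO-6 (log2 fold change 3.04 ± 0.07, edgeR adjusted p = 2.76e-12). PKO-1 with a mean of 340.2 and TM6 with 262 lay above rho0 but far below PKO-6 for this gene. Genes of fusion, fission, biogenesis and mitophagy counted 5 higher and 4 lower of 26 (34.6% called), with 3 higher when rho0 replicate 2 or 3 or PKO-6 replicate 1 or 2 was left out. *Ppargc1b*, a coactivator of mitochondrial biogenesis, had 155, 177 and 173 in rho0 and 391, 389.7 and 417 in PKO-6 (log2 fold change 1.25 ± 0.11), while *Pprc1*, a relative of it, differed by -0.64 ± 0.06 and *Sqstm1*, the autophagy receptor p62, by -0.61 ± 0.07. These coactivators of 1 family thus went opposite ways. Mitochondrial proteases and chaperones counted 0 higher and 2 lower of 19, against 13.3% higher and 8.16% lower of all genes. The share called lower was thus near that of all genes. The lower genes were *Trap1* (-0.52 ± 0.05) and *Immp2l*, and neither call held without rho0 replicate 1 (-0.49 and -0.43).

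For dNTP supply 1 of 23 genes was higher and 1 lower (8.70% called, against 21.5% of all genes), with 2 and 0 without both libraries and 0 to 2 higher and 1 to 2 lower with 1 library left out. For pyrimidine synthesis and uridine salvage 2 of 14 were higher and 1 lower (21.4% called), with 4 and 0 without PKO-6 replicate 3 and 5 and 0 without both libraries. *Upp1*, uridine phosphorylase, had 201, 144 and 169 normalized counts in rho0 and 323, 331 and 285 in PKO-6 (log2 fold change 0.87 ± 0.13, edgeR adjusted p = 1.08e-04), and *Dpyd*, which starts pyrimidine breakdown, differed by 0.93 ± 0.13. Both genes remove uridine or its products, and both were lower in PKO-1 than in rho0, at means of 106 and 49.4. *Dhodh*, the mitochondrial enzyme of pyrimidine synthesis, was at -0.54 ± 0.07 and was not called without PKO-6 replicate 3 (-0.50).

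Of 41 tested genes of the integrated stress response 9 were lower in PKO-6 (against 8.16% of all genes) and 1 was higher, with a median of -0.22. Without rho0 replicate 2 it was 14 lower and 1 higher, without rho0 replicate 1 it was 8 and 3, and without PKO-6 replicate 3 or both libraries it was 9 and 3. *Aldh1l2*, a mitochondrial folate enzyme, had 48584, 46591 and 48208 normalized counts in rho0 and 29000.1, 26569 and 28659 in PKO-6 (log2 fold change -0.77 ± 0.05, edgeR adjusted p = 4.85e-08). *Pycr1*, of proline synthesis, differed by -0.81 ± 0.09 and *Vldlr*, a lipoprotein receptor, by -0.68 ± 0.06, while *Chac1*, a glutathione-degrading enzyme, was higher at 0.61 ± 0.09. Every library of *Aldh1l2* in PKO-6 lay below every rho0 library, yet both lines lay far above TM6, whose mean was 6895. Against TM6, with its libraries shared, 35 of 41 genes were higher in PKO-6 (median 1.34) and 36 of 41 in rho0 (median 1.48). PKO-1 was lower than rho0 in 36 of 41, with a median of -1.02. Aminoacyl tRNA synthetases counted 0 higher and 1 lower (*Lars*, -0.53 ± 0.05) of 38, or 2.63% called against 21.5% of all genes. Their lower count was 6 without rho0 replicate 2, 4 without rho0 replicate 3, 3 without PKO-6 replicate 2 and 2 without both libraries or either other PKO-6 library. Amino acid transporters counted 5 higher and 4 lower of 25 (36.0% called), and 1 lower with chromosome medians removed. *Slc1a3*, a glutamate transporter, was at 1.83 ± 0.12, and *Slc6a9*, a glycine transporter, was at -0.59 ± 0.07. Endoplasmic reticulum stress genes counted 2 higher and 1 lower of 25 (12.0% called, against 21.5% of all genes). Among them *Creld2*, a chaperone cofactor, was at 0.84 ± 0.10 and *Edem1*, of glycoprotein degradation, at -0.59 ± 0.04. Cytosolic ribosomal proteins counted 1 higher and 3 lower of 77 (5.19% called, median -0.18), and 2 higher and 0 lower without both libraries. Their lower count was 1 without rho0 replicate 1, 8 without rho0 replicate 2, and 5 without rho0 replicate 3 or PKO-6 replicate 2. RNA exosome genes counted 1 higher and 1 lower of 21 (9.52% called). *Rps2* was at -0.63 ± 0.10, and its counts can be shared with processed pseudogenes.

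Of 32 genes of glycolysis and pyruvate fate 6 were lower and 1 higher (median -0.28), against 8.16% lower and 13.3% higher of all genes. Without rho0 replicate 1, alone or with PKO-6 replicate 3, 3 were lower and 2 higher. It was 9 lower and 1 higher without rho0 replicate 2, and 8 and 1 without PKO-6 replicate 2. *Ldha*, the muscle-type lactate dehydrogenase subunit, had 54683, 44612 and 47289 normalized counts in rho0 and 29403, 30833 and 25792 in PKO-6 (log2 fold change -0.77 ± 0.08, edgeR adjusted p = 4.78e-06). *Ldhb*, the heart-type subunit, had 359, 332 and 349.5 in rho0 and 77.8, 87.1 and 71.7 in PKO-6 (log2 fold change -2.14 ± 0.11). *Pdk1*, which restrains pyruvate dehydrogenase, was at -0.57 ± 0.05, while *Pdk2*, its paralog, was at 0.74 ± 0.12. Both lactate dehydrogenase genes were lowest in PKO-6 of the 4 lines, since TM6 had means of 40327 and 361, and PKO-1 had 50947 and 377. Of 25 hypoxia-response genes 7 were lower and 1 higher (28.0% lower, median -0.31), or 7 and 2 without both libraries. *Adm*, the vasodilator adrenomedullin, had 300.3, 287 and 283 in rho0 and 79.4, 93.3 and 96.0 in PKO-6 (log2 fold change -1.70 ± 0.11), *Lox*, the collagen cross-linking lysyl oxidase, was at -1.37 ± 0.07, *Car9*, a carbonic anhydrase of hypoxic cells, at -1.40 ± 0.15, and *Bhlhe40*, a transcription repressor, at -1.03 ± 0.05. PKO-1 was not below rho0 for *Adm* (428) or *Lox* (30993). Among 10 carbonic anhydrases 2 were higher, *Car12* at 2.40 ± 0.09 and *Car8* at 2.92 ± 0.16, and *Car9* was lower (30.0% called, against 21.5% of all genes). Of 34 genes of the TCA cycle and fatty acid oxidation 2 were higher and 0 lower (5.88% called), among them *Cpt1a*, the gate of fatty acid entry, at 0.73 ± 0.07.

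Of 23 genes of fatty acid synthesis and desaturation 8 were lower and 2 higher (median -0.38), or 34.8% lower against 8.16% of all genes. *Scd2*, a stearoyl-CoA desaturase (chromosome 19, 44293676 to 44306862, plus strand), had 54273, 48517 and 50695 normalized counts in rho0 and 15092, 16949 and 14252 in PKO-6, a log2 fold change of -1.73 ± 0.07 (edgeR adjusted p = 3.47e-10). *Scd1*, its paralog, was at -1.32 ± 0.05, *Acsl3*, an acyl-CoA ligase, at -0.97 ± 0.08, and *Fads2*, a polyunsaturated fatty acid desaturase, at -0.80 ± 0.09. Libraries did not overlap for any of these genes, and TM6 was highest, with a mean of 132089 for *Scd2*. The list's median against TM6 was -1.04 in PKO-6 and -0.66 in rho0. Of 20 cholesterol synthesis genes 4 were lower and 0 higher (against 8.16% and 13.3% of all genes, median -0.16), with 5 and 1 without PKO-6 replicate 3 and 3 and 1 without both libraries. *Hmgcs1*, the HMG-CoA synthase, had 3571, 3525 and 3549 in rho0 and 2093, 2310.1 and 2326 in PKO-6 (log2 fold change -0.66 ± 0.06), and *Cyp51*, a sterol demethylase, was at -0.59 ± 0.07. Against TM6, 19 of 20 were lower in PKO-6 (median -2.16) and 19 of 20 in rho0 (median -2.18), so the list's distance from the parent was close to the same in both lines and its median between them was -0.16.

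Of 21 genes of cholesterol uptake, efflux and control 5 were lower and 3 higher (38.1% called, against 21.5% of all genes). *Insig1*, which holds back sterol synthesis, had 3890.0, 3397 and 3559.8 normalized counts in rho0 and 2113, 2309 and 2126 in PKO-6 (log2 fold change -0.73 ± 0.08, edgeR adjusted p = 3.45e-06). All PKO-6 libraries lay below all rho0 libraries, and TM6 had a mean of 13581.

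Of 32 tested genes of the p53 pathway 17 were higher (53.1%, against 13.3% of all genes) and 0 lower, with a median of 0.55, or 16 and 1 without rho0 replicate 1, PKO-6 replicate 3 or both. MEFs of this line carry SV40 large T antigen, which binds p53. *Perp*, a membrane protein of apoptosis and desmosomes, had 2121, 1880.3 and 1854 normalized counts in rho0 and 7421, 7481 and 7624 in PKO-6 (log2 fold change 1.94 ± 0.07, edgeR adjusted p = 1.04e-10). *Ccng1*, cyclin G1, had 5654, 5602 and 5877 in rho0 and 14898, 14826 and 17972 in PKO-6 (log2 fold change 1.48 ± 0.09). *Cdkn1a*, the CDK inhibitor p21, had 4526, 3864 and 4086 in rho0 and 9808, 9414 and 8771 in PKO-6 (log2 fold change 1.17 ± 0.07). Each PKO-6 library exceeded each rho0 library for all of them. *Trp53inp1*, a p53 cofactor, was at 1.70 ± 0.10, *Btg2*, an antiproliferative factor, at 1.64 ± 0.13, and *Pmaip1*, the BH3 protein Noxa, at 1.47 ± 0.09. *Trp53* itself was not called, at 10502 ± 1144 in rho0 and 8856 ± 1064 in PKO-6 (SD, n = 3 each, log2 fold change -0.25 ± 0.09). The clones differed here: PKO-1 had 907 of *Perp*, 13382 of *Ccng1* and 4431 of *Cdkn1a*, and against rho0 it counted 5 higher and 7 lower of the list. Against TM6, PKO-6 counted 20 higher and 5 lower, and rho0 14 higher and 6 lower.

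Of 26 early response genes 14 were higher and 1 lower (median 0.57), or 53.8% higher and 3.85% lower against 13.3% and 8.16% of all genes. *Egr1*, a zinc-finger factor induced within minutes of stimulation, had 1313, 1237 and 1524 normalized counts in rho0 and 8762, 2887 and 12167 in PKO-6 (log2 fold change 2.55 ± 0.36, edgeR adjusted p = 4.89e-05). PKO-6 replicate 2 was well below its partners for *Egr1*, though still above all rho0 libraries, and *Fos*, at 235, 131 and 315 against 52.3, 37.7 and 49.1, had the same order. *Ctgf*, a matricellular target of YAP, varied less, with 4182, 4045 and 4451 in rho0 and 13421, 12877 and 14149 in PKO-6 (log2 fold change 1.67 ± 0.06). *Dusp4*, a MAP kinase phosphatase, was at 1.63 ± 0.09. The lower gene was *Atf3* at -0.51 ± 0.08, which was not called without rho0 replicate 1 or PKO-6 replicate 2 (-0.49 and -0.44). Of 16 genes of the Bcl2 family 4 were higher and 2 lower (37.5% called), with *Bcl2l1* at 0.96 ± 0.06 and *Bok* at -1.10 ± 0.14.

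**Figure D3:**
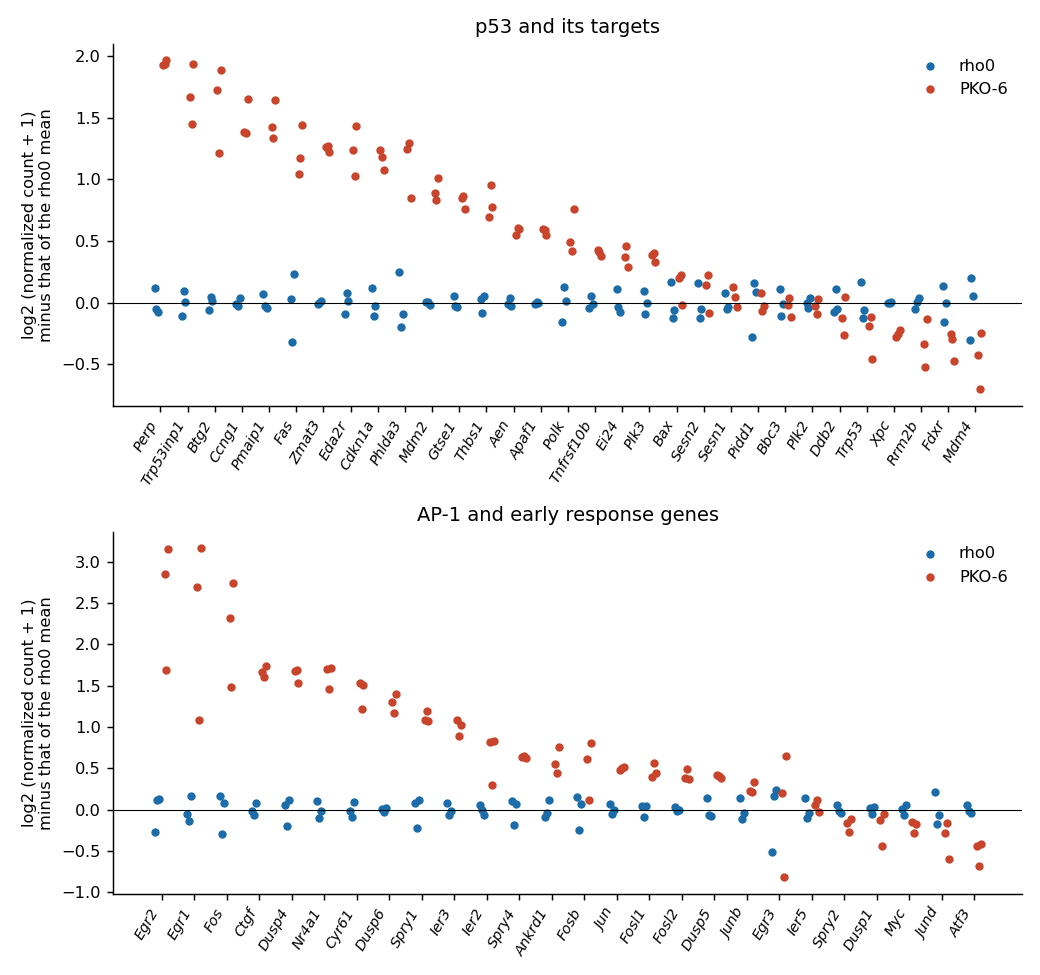
Log2 of the normalized count plus 1 in each rho0 (blue) and PKO-6 (red) library, less the value at the rho0 mean, for tested genes of the p53 list (top) and the early response list (bottom), 1 point a library. PKO-6 points stand above the rho0 points for genes at the left of the p53 panel, from *Perp* to *Cdkn1a*, and *Egr1*, with 2887 to 12167 normalized counts, shows the widest spread between PKO-6 libraries.

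Of 45 genes of DNA replication and mitosis 0 were higher and 4 lower (8.89%, against 8.16% lower of all genes, median -0.03), each between -0.60 and -0.50, among them *Mcm5*, of the replicative helicase, at -0.60 ± 0.07, and *Lig1*, a DNA ligase, at -0.50 ± 0.04. With the median of each chromosome removed 0 of the list were called, without rho0 replicate 1 it was 0 higher and 2 lower, and without both libraries 2 and 2. Of 22 genes of the G1 phase 3 were higher and 0 lower, and this 13.6% was near the 13.3% higher of all genes. The 3 were *Cdkn1a*, *Cdkn1c* (0.63 ± 0.08) and *Ccnd1*, cyclin D1 (0.60 ± 0.06). Replication-dependent histones counted 6 higher and 0 lower of 65 (9.23% higher, against 13.3% of all genes). It was 13 and 0 without rho0 replicate 1, 14 and 0 without PKO-6 replicate 3, and 23 and 0 without both libraries. *Tert*, the telomerase reverse transcriptase, had 11.6, 11.1 and 13.4 normalized counts in rho0 and 139, 117 and 144 in PKO-6 (log2 fold change 3.46 ± 0.22, edgeR adjusted p = 2.50e-08). TM6 had 121 and PKO-1 98.7, so rho0 was the low line, while *Terc*, its RNA template, was not called (0.64 ± 0.21, edgeR adjusted p = 0.0200).

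Of 25 contractile genes 5 were lower and 2 higher (28.0% called, against 21.5% of all genes). *Acta2*, smooth muscle actin, had 847, 670.4 and 693 normalized counts in rho0 and 92.5, 53.9 and 82.4 in PKO-6 (log2 fold change -3.25 ± 0.14, edgeR adjusted p = 4.08e-10). *Myl9*, a regulatory light chain, had 684, 582 and 622 in rho0 and 56.5, 79.8 and 60.1 in PKO-6 (-3.28 ± 0.11), and *Tagln*, transgelin, was at -2.24 ± 0.12. These genes of the myofibroblast apparatus were highest in TM6, with means of 11554 for *Acta2*, 3044 for *Myl9* and 6051 for *Tagln*. *Mylk*, the kinase of that light chain, was higher at 1.51 ± 0.11.

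Of 30 collagens 11 were lower and 6 higher (median -0.23), against 8.16% and 13.3% of all genes. *Col4a1*, of basement membranes, had 4067, 3471 and 3602 normalized counts in rho0 and 956, 1060.2 and 891 in PKO-6 (log2 fold change -1.94 ± 0.07), and *Col4a2*, read from the same promoter region in the other direction, was at -1.75 ± 0.06. *Col4a6* was at -4.44 ± 0.14. *Col4a3* and *Col4a4*, another such pair, were higher at 1.64 ± 0.14 and 2.07 ± 0.17. Chains of collagen IV thus split by pair. Of the fibrillar collagens, *Col1a2* was at -0.79 ± 0.11, *Col5a1* at -1.23 ± 0.07, and *Col1a1* at -0.68 ± 0.13, the last not called without both libraries (-0.45). *Col11a1* was higher at 1.10 ± 0.08. Of 35 metalloproteinases and inhibitors 6 were higher and 9 lower (42.9% called, against 21.5% of all genes), with *Adamtsl3* at -2.58 ± 0.12, *Timp3*, an inhibitor bound to the matrix, at -1.01 ± 0.06, and *Adamts14*, a procollagen peptidase, at 1.96 ± 0.09.

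Of 31 integrins and laminins 12 were higher and 3 lower (38.7% higher, against 13.3% of all genes, median 0.39). *Itgb7*, the integrin β7 chain of lymphocytes, had 189, 175 and 179 normalized counts in rho0 and 3396, 3644 and 2879 in PKO-6 (log2 fold change 4.19 ± 0.11, edgeR adjusted p = 5.99e-12), with 181 in TM6 and 230.0 in PKO-1. PKO-6 alone was high. *Itgb3* was at 2.32 ± 0.23 and *Itgb4*, of hemidesmosomes, at 2.22 ± 0.15, while *Lama2*, the laminin of muscle basement membrane, was at -2.11 ± 0.08. Of 51 genes of TGF-beta and BMP signalling 13 were higher and 9 lower (43.1% called, against 21.5% of all genes), with *Grem1*, a BMP antagonist, at 1.07 ± 0.06, *Smad3* at 0.83 ± 0.05 and *Ltbp4*, a latent TGF-beta binding protein, at -1.32 ± 0.10.

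Of 27 receptor tyrosine kinases and ligands 9 were higher and 3 lower (44.4% called, median 0.38). Besides *Flt4* and *Gas6*, *Pdgfra*, the PDGF receptor α, had 81.4, 94.2 and 69.2 normalized counts in rho0 and 431, 402 and 411 in PKO-6 (log2 fold change 2.34 ± 0.10), far from the 3225 of PKO-1. *Egfr* was at -0.98 ± 0.08, *Flt1*, VEGF receptor 1, at -0.82 ± 0.08 and *Pdgfrb* at -0.71 ± 0.07, so the PDGF receptors went opposite ways. Of 37 Wnt genes 8 were higher and 7 lower. *Wnt7a* had 46.5, 23.3 and 42.4 in rho0 and 648, 711 and 604 in PKO-6 (4.11 ± 0.23), *Wnt5a*, a ligand of the non-canonical pathway, had 816, 790.0 and 816 in rho0 and 104, 77.7 and 92.1 in PKO-6 (-3.14 ± 0.11), and *Rspo3*, which amplifies Wnt signals, was at -2.13 ± 0.11. Wnt ligands thus differed in both directions. Of 27 semaphorins, plexins and neuropilins 9 were higher and 6 lower, with *Plxnb1* at 2.85 ± 0.13, *Sema4d*, its ligand, at 2.35 ± 0.11 and *Sema3a* at -0.98 ± 0.08. Of 32 ephrins, slits and netrins 10 were higher and 9 lower, with *Ephb4* at 1.54 ± 0.09 and *Unc5b*, a netrin receptor, at -1.39 ± 0.10. Shares called in these lists were 40.5% to 59.4%, against 21.5% of all genes.

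Of 35 Hox genes, which record the position of a cell along the body axis, 10 were higher and 1 lower (median 0.22), or 28.6% higher against 13.3% of all genes, and 2 were lower without both libraries. *Hoxb7* had 37.8, 29.9 and 43.5 normalized counts in rho0 and 347, 343 and 343 in PKO-6 (log2 fold change 3.21 ± 0.14, edgeR adjusted p = 4.20e-10), with 63.5 in TM6 and 29.9 in PKO-1. *Hoxc6* was at 0.90 ± 0.07, and *Hoxa3* was lower at -0.74 ± 0.16. Of 36 transcription factors of limb and mesenchyme 6 were higher and 8 lower (38.9% called, against 21.5% of all genes), with *Gata4* at 2.40 ± 0.11, *Sox9* at 1.97 ± 0.07 and *Osr1* at -0.79 ± 0.06. Of 35 imprinted genes 7 were higher and 6 lower (37.1% called), or 6 and 10 without both libraries. *Peg13*, a paternally expressed noncoding RNA inside a larger gene, had 273, 279 and 279 in rho0 and 1149, 1269 and 1145 in PKO-6 (log2 fold change 2.10 ± 0.09), and *Dlk1*, an inhibitor of adipocyte differentiation, had 387, 276 and 287 in rho0 and 68.8, 86.0 and 56.2 in PKO-6 (-2.17 ± 0.19). Their libraries did not overlap. Clustered protocadherins, cell-surface labels of neurons that share exons and so share reads, counted 2 higher and 11 lower of 33. That was 33.3% lower against 8.16% of all genes, with a median of -0.60, the lowest of the 51 lists. It was 2 and 17 without rho0 replicate 1 and 2 and 15 without both libraries. Of 7 genes of the X inactivation centre 1 was higher and 0 lower (14.3% called), with 1 and 2 without rho0 replicate 1 and 1 and 3 without both libraries. *Xist*, the RNA that coats the inactive X, was read in both lines and not called, with 47051, 109328 and 97787 in rho0 and 80185, 55288 and 99686 in PKO-6, against a mean of 30.8 in PKO-1.

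Of 49 interferon-stimulated genes 7 were higher and 8 lower (median -0.09), or 14.3% and 16.3% against 13.3% and 8.16% of all genes. *Ifi27* had 741, 615 and 607 normalized counts in rho0 and 206, 181 and 156 in PKO-6 (log2 fold change -1.85 ± 0.12), and *Parp9*, which overlaps its neighbour *Dtx3l* (-0.64 ± 0.07), had means of 627 in rho0 and 315 in PKO-6, while *Isg20*, an exonuclease, was at 0.83 ± 0.11. Of 23 nucleic acid sensors and adaptors 5 were lower and 2 higher (30.4% called, against 21.5% of all genes), with *Ifi204*, a DNA sensor, at -1.20 ± 0.12 and *Mb21d1*, the gene of cGAS, at -0.58 ± 0.09. Of 22 genes of MHC class I presentation 5 were higher and 1 lower (27.3% called, median 0.28; 3 and 0 without PKO-6 replicate 2), with *Tap1*, a peptide transporter, at 0.80 ± 0.09. *H2-Q8* had 43.6, 29.9 and 56.9 in rho0 and 467, 434 and 401 in PKO-6 (log2 fold change 3.32 ± 0.20) and 0 in TM6 and PKO-1, but H2-Q genes are near copies whose reads can be split between them. Of 23 chemokines, cytokines and complement genes 9 were higher and 4 lower (39.1% and 17.4%, median 0.48). *Ccl2*, a monocyte attractant, had 17.4, 11.1 and 12.3 in rho0 and 179, 273 and 224 in PKO-6 (log2 fold change 4.01 ± 0.20), and *Lif*, an IL-6 family cytokine, was at 1.81 ± 0.11. TM6 had 1618 of *Ccl2*, above both.

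Of 38 genes of autophagy and lysosome 8 were higher and 1, *Ctsk*, lower (21.1% higher, against 13.3% of all genes, median 0.26), and 12 and 1 without both libraries. *Gpnmb*, a membrane glycoprotein of lysosomes and melanosomes, had 2354, 2129.7 and 2122 normalized counts in rho0 and 12571, 13735 and 12070.1 in PKO-6 (log2 fold change 2.54 ± 0.06, edgeR adjusted p = 2.76e-12), with 4956 in TM6 and 2142 in PKO-1. *Tfeb*, the regulator of lysosomal genes, was at 0.84 ± 0.13, and cathepsins *Ctsd* and *Ctsl* were at 0.82 ± 0.08 and 0.78 ± 0.07. Of 23 genes of iron handling and iron-sulfur assembly 4 were higher and 2 lower (26.1% called, against 21.5% of all genes). *Steap3*, a ferrireductase, had 629, 523 and 526 in rho0 and 1312, 1488 and 1271 in PKO-6 (log2 fold change 1.28 ± 0.08), whereas *Nfu1*, a carrier of iron-sulfur clusters, was at -0.93 ± 0.07. Of 35 antioxidant genes 5 were higher and 4 lower (25.7% called), or 3 and 4 without rho0 replicate 2 or PKO-6 replicate 2. *Hmox1*, heme oxygenase 1, had 4654, 3993 and 4115 in rho0 and 1431, 1366 and 1381 in PKO-6 (log2 fold change -1.61 ± 0.06, edgeR adjusted p = 1.28e-10), near the 1212 of PKO-1 and below the 3057 of TM6.

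**Figure D4:**
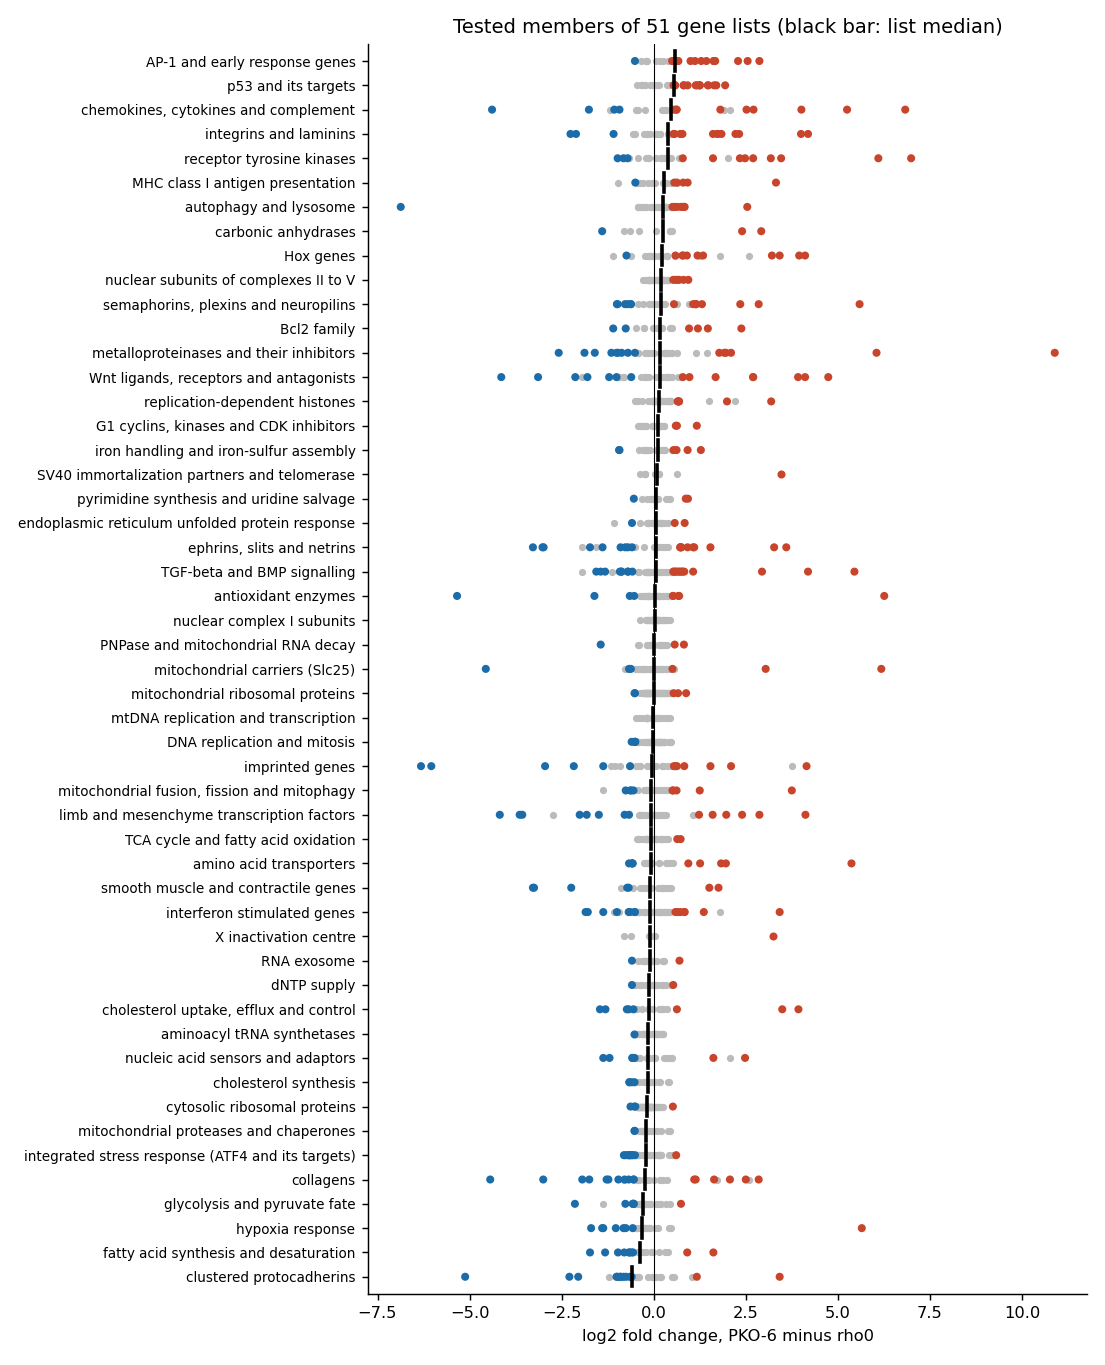
Log2 fold change of PKO-6 against rho0 for each tested member of 51 gene lists, ordered by the list's median (black bar), with genes called higher in red, called lower in blue and not called in grey. Early response and p53 genes stand at the top with medians of 0.57 and 0.55, clustered protocadherins at the bottom with -0.60, and lists of mtDNA replication and complex I hold no coloured point.

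Whole chromosomes stood apart as well. The median log2 fold change was 0.32 over 560 tested genes of chromosome 15, 0.26 over 876 of chromosome 5, 0.25 over 684 of chromosome 3 and 0.18 over 706 of chromosome 10, while it was -0.27 over 739 of chromosome 8 and -0.14 over 1014 of chromosome 7, against -0.01 over all genes. On chromosome 15, 77.5% of genes were above 0, with 165 called higher and 22 lower, and on chromosome 8, 22.2% were above 0, with 49 higher and 138 lower. Medians over 4 equal runs of a chromosome's genes in order were even along some chromosomes. They ran from 0.27 to 0.36 on chromosome 15, from 0.25 to 0.30 on chromosome 5 and from -0.31 to -0.24 on chromosome 8. Chromosome 6 was less even, from -0.17 to 0.12. Against TM6, chromosomes 15, 5, 3 and 10 had medians of -0.38, -0.21, -0.17 and -0.18 in rho0 and of -0.09, 0.06, 0.06 and 0.01 in PKO-6. Chromosome 8 had -0.43 in PKO-6 and -0.18 in rho0. On the first 4 it was thus rho0, and on chromosome 8 more so PKO-6, that lay away from the parent. With the median of each chromosome removed, 2722 genes were called in place of 3014, and of the 264 called genes that the naming rule admits 44 were no longer called, among those named here *Mcm5* (-0.32), *Lig1* (-0.36), *Trap1* (-0.42), *Dhodh* (-0.26) and *Lars* (-0.46). DNA copy number was not measured here.

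**Figure D5:**
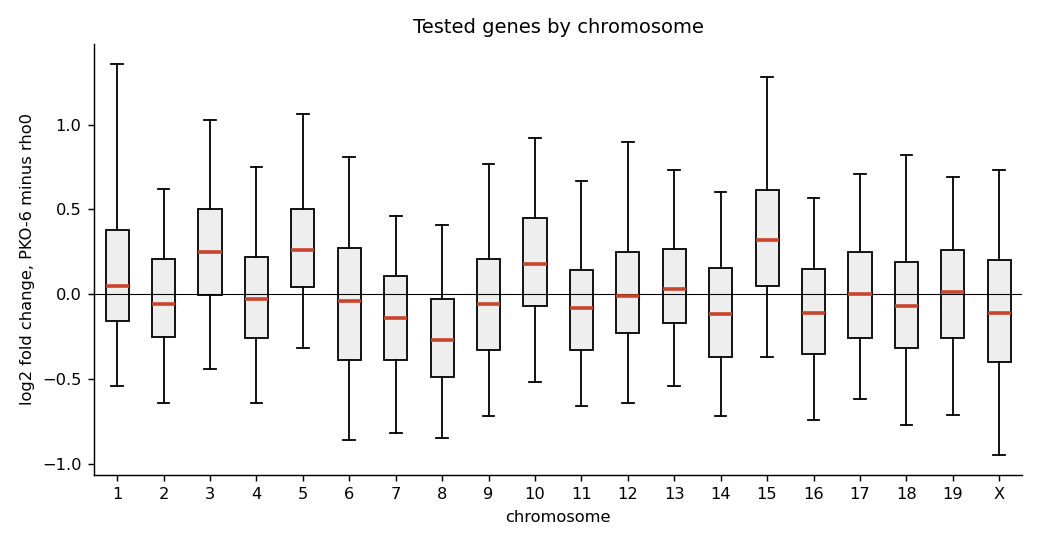
Log2 fold change of PKO-6 against rho0 for tested genes of each chromosome, with the median (red), the middle of the distribution from the lower to the upper quartile (box) and the 10th to 90th percentile (whiskers). Chromosomes 3, 5, 10 and 15 sit above 0 and chromosome 8 below it, with medians of 0.25, 0.26, 0.18, 0.32 and -0.27.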

How the data were processed

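RNA was sequenced from 3 cultures each of TM6, rho0, PKO-1 and PKO-6 MEFs with a stranded kit after depletion of ribosomal RNA, and the 2 technical duplicates of a library were merged. The authors aligned reads with Bowtie2 to mouse transcripts, which RSEM 1.2.25 had built from mm10 and RefSeq genes, and they deposited expected counts and TPM for 24453 genes. Whether counting used strand is not given in the sources used here, so values of overlapping genes are uncertain. Expected counts were rounded (12.5% had decimals). Genes were filtered with a minimum count of 10, leaving 14026, scaled by TMM and fitted over all 4 lines with the quasi-likelihood test of edgeR 4.0.16 (R 4.3.3). Called genes had a log2 fold change beyond 0.5 in either direction at a Benjamini-Hochberg adjusted p under 0.01. SE is the log2 fold change divided by the square root of F. The common biological coefficient of variation was 0.0837. TPM served only for marker sums.

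On simulated counts for this comparison (13912 genes), 81.8% of 99 genes changed by a log2 of 1 and 95.9% of 98 changed by a log2 of 2 were recovered, with 0 false calls. These counts were drawn from the fitted model itself, with no library standing apart, so few false calls were built in. The error in the measured libraries was not estimated by it. Alternatives were other scalings (DESeq2 1.42.0 size factors, upper quartile, *Rn45s* taken out), no filter, a fit of the 2 lines alone, removal of chromosome medians, thinning, glmTreat, a threshold of 1, the DESeq2 Wald test, a replicate block, and leaving out each library, and, chosen after seeing the data, rho0 replicate 1 and PKO-6 replicate 3 together. Members, gene lists and tests were chosen with earlier results of these data known. Named genes were *Pnpt1*, the 12 genes with the largest called difference in each direction at a mean of at least 100 normalized counts without overlap, up to 4 called genes per direction and list at that level, every member of lists of 12 or fewer, the 6 leading genes silent in each line, and the 3 leading genes of chromosome 15, whose median lay farthest from that of all genes. Some items are not reported here. Genes silent in 1 line are given as bounds against 3 counts in a library. Replicates were separate cultures, so p-values measure the spread between cultures.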

Additional observations from a re-analysis of the deposited data

Results flagged for a closer look

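For 10 of the named genes PKO-6 and PKO-1, both knockout clones, went opposite ways against rho0 by a log2 fold change beyond 1, and the difference between the clones was itself tested in the same edgeR fit. The comparisons share the rho0 libraries, and how the clones came to differ was not tested. *H2-Q8* differed most, at 3.32 in PKO-6 and -8.45 in PKO-1, a difference of 11.76 ± 0.47 (SE, edgeR adjusted p = 1.67e-08), with 0 counts in PKO-1 so that the size depends on the prior count. *Rcn1* was at -7.66 and 1.83, a difference of -9.49 ± 0.23 (edgeR adjusted p = 1.00e-12). *Elovl3*, a fatty acid elongase, differed by 6.49, *Wnt7a* by 6.10 and *Epcam*, an epithelial adhesion protein, by 5.80. *Plxnb1* differed by 4.34, *Perp* by 3.05 and *Col4a3* by 2.82, all with PKO-6 above rho0 and PKO-1 below it. *Col6a3*, a chain of collagen VI, differed by -4.34 and *Adamts5*, an aggrecanase, by -2.24, with PKO-6 below rho0 and PKO-1 above it.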

How the results depend on the processing

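The edgeR counts of 1870 higher and 1144 lower genes (3014) moved by over 1.5 times only under glmTreat against 0.5 (1128 and 469, 1597 in all) and a threshold of 1 (1014 and 496, 1510 in all). Without rho0 replicate 1 they were 1905 and 1494. Replicate numbers did not pair the cultures (correlations of same-numbered deviations -0.10, -0.38 and 0.23), and the replicate block gave 1831 and 1121 (2952). Deviations of rho0 replicate 1 correlated at 0.49 with PKO-6 replicate 2 and at -0.42 with PKO-6 replicate 3. The *Rn45s* share of counts was 15.8% to 19.6% in rho0 and 12.2% to 19.2% in PKO-6, and its link to these correlations was not tested. *Pnpt1* ran from -1.54 to -1.37 with 1 library left out. Of 264 called named genes 0 reversed under any alternative, 44 lost their call with chromosome medians removed, and the cause was not tested. Removing chromosome medians set list medians to -0.12 (mtDNA replication), -0.03 (dNTP supply), 0.37 (chemokines), 0.02 (G1), 0.47 (p53), 0.21 (metalloproteinases), 0.24 (integrins), -0.01 (contractile), 0.11 (ephrins), 0.03 (carbonic anhydrases), -0.40 (hypoxia) and -0.03 (Slc25). Upper quartile scaling gave -0.15 (dNTP supply), 0.02 (TGF-beta) and -0.02 (Slc25), *Rn45s* taken out -0.01 (Slc25), the fit of the 2 lines 0.32 (chemokines), -0.08 (metalloproteinases), 0.12 (ephrins) and 0.04 (Slc25), thinning 0.00 (metalloproteinases), -0.01 (TGF-beta) and -0.02 (Slc25), and the DESeq2 Wald test 0.07 (metalloproteinases). Without both libraries medians were -0.10 (mtDNA replication), 0.50 (p53), 0.00 (metalloproteinases), 0.32 (integrins), -0.01 (TGF-beta) and -0.07 (SV40 partners and telomerase). With all measured members kept they were 0.32 (chemokines), 0.00 (collagens), 0.02 (TGF-beta), 0.00 (limb transcription factors), 0.43 (carbonic anhydrases), -0.01 (Slc25) and 0.04 (amino acid transporters). Leaving out 1 library gave ranges of -0.10 to -0.03 (mtDNA replication), -0.14 to -0.07 (dNTP supply), 0.51 to 0.55 (p53), 0.00 to 0.15 (metalloproteinases), 0.33 to 0.37 (integrins), 0.02 to 0.06 (ephrins), 0.01 to 0.05 (TGF-beta), 0.17 to 0.32 (Hox), -0.38 to -0.28 (hypoxia), -0.04 to -0.00 (Slc25), -0.13 to 0.08 (amino acid transporters) and 0.02 to 0.12 (SV40 partners and telomerase). Genes silent in PKO-6 numbered 1 at 0 counts, 11 at a level of 50, 10 without both libraries and 6 to 10 without 1 library, and those silent in rho0 4 at 0 counts, 33 at 50, 4 at 200 and 17 without both.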
